A study of Mus musculus with 32 samples.

Results

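Mesenchymal cells are held apart from epithelial cells by their cytoskeleton, their matrix and the way in which they adhere, and the epithelial-mesenchymal transition (EMT) is the switch from the second state to the first. The 10 genes described here comprise 6 structural markers of mesenchymal cells (*Vim*, *Thy1*, *Cdh2*, *Fn1*, *Fbln2* and *Dpysl3*) and 4 transcription factors that drive EMT (*Snai1*, *Snai2*, *Zeb1* and *Zeb2*). They were chosen by known function together with their RNA values in the same libraries that are compared here, so their differences are a description and carry no test. All 10 symbols were found among the 24028 symbols of the RNA tables.

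RNA-seq was done on wild-type (WT) mESCs, that is mouse embryonic stem cells, which are pluripotent cells of the early embryo kept in culture, and on mESCs labelled *Eed* -/-. EED is a core subunit of PRC2, the Polycomb complex that methylates lysine 27 of histone H3. Both genotypes were grown with serum and leukemia inhibitory factor on gelatin without further treatment, and both RNA samples carry the line name TT2, while *Eed* -/- samples of other assays carry the name l7Rn5-3354SB, which is that of a mutant allele of *Eed*. Whether the RNA library came from that line is not told by its label. With 1 library per genotype, genotype, culture and line cannot be told apart, and no p-value was computed.

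Steps in the low FPKM values (fragment numbers scaled to transcript length and to library size) placed the depth near 7240000 fragments in WT against 6420000 in the second library. *Eed* itself (chromosome 7 of mm9, 97103166 to 97129493) was at an FPKM of 63.0 in WT against 70.9 in the *Eed* -/- labelled library, so its transcript was not lower there, and the genotype is given below as the label states it. An RNA level checks the label only for a mutation that removes the transcript, and does not tell whether the protein was made. For its *Eed* -/- mESCs, the paper reports a check of *Eed* loss by western blots and ChIP-seq of the histone methylation that PRC2 makes. Those data were not analysed here. The 10 pluripotency markers looked up, *Pou5f1* and *Nanog* among them, were above an FPKM of 1 in both libraries, and their summed FPKM was 1612 in WT against 1783 in the *Eed* -/- labelled library. In log2(normalized FPKM + 1), genes of chromosome 1 had a median change of -0.29, those of chromosome 8 of -0.39 and those of chromosome X of 0.46, where all genes used had 0.01. Of the genes named below, *Fn1*, *Des*, *Hmcn1*, *Elf3*, *Lefty2*, *Lamc1* and *Twist2* lie on chromosome 1, *Cdh1*, *Cdh3*, *Cdh5*, *Cdh8*, *Cdh11*, *Snai3*, *Itgb1*, *Col4a1*, *Col4a2* and *Tubb3* on chromosome 8, and *Klf8* and *Timp1* on chromosome X, and the part of the chromosome in their values was not tested. *Sox1*, also named below, was matched to no position, so it could not be placed in this list.

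In epithelial cells, E-cadherin joins neighbouring cells and keratins form the intermediate filaments. SNAI1, SNAI2, ZEB1 and ZEB2 are zinc-finger repressors that bind E-box sequences (CACCTG, or CAGGTG on the other strand) at E-cadherin and other epithelial genes, while vimentin, N-cadherin and fibronectin are the proteins by which the mesenchymal state is usually recognised. mESCs are themselves epithelial-like, and *Snai1* is needed at gastrulation, when mesoderm leaves the epiblast. RefSeq promoter sequences (GRCm38.p6) were at hand for 4 of the 10 genes, *Vim*, *Fbln2*, *Snai1* and *Zeb2*. The 250 bases before the start site of 2 structural markers and 1 regulator are shown in lower case from 5′ to 3′ to let the repressors' own motif be looked for, with the E-box in capitals.
Vim, chr2:13574061-13574310, plus strand: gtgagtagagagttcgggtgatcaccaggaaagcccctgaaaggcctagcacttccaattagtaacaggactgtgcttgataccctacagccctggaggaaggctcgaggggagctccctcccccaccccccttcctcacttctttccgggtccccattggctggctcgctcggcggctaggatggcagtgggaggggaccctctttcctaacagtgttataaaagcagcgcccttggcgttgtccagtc
Fbln2, chr6:91212514-91212763, plus strand: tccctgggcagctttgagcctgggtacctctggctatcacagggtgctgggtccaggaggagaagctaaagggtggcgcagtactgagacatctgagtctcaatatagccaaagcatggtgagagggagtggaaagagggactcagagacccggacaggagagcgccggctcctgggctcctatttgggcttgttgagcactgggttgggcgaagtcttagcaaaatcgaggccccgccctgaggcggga
Snai1, chr2:167537945-167538194, plus strand: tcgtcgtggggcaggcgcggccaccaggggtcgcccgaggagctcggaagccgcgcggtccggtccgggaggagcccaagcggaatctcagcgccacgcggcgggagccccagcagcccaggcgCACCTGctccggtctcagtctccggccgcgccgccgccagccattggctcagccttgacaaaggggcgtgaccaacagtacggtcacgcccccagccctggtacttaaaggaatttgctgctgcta

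The E-box was found in 1 copy in the *Snai1* window and in none of the windows of *Vim*, *Fbln2* or *Zeb2*, whereas 17.2% of 32851 promoter windows of this length held it. The *Snai1* window held 27 CpG dinucleotides, the *Vim* and *Fbln2* windows 8 each, and the median window 6. A match describes letters in this window only, and its use was not measured.

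*Vim*, *Thy1* and *Dpysl3* were far higher in the *Eed* -/- labelled library than in WT, *Fbln2* was higher by less, and *Cdh2* and *Fn1* were lower. None of the 4 regulators reached 2-fold on the scale used. These differences, called changes here, are in log2(FPKM + 1) after quantile normalization, labelled *Eed* -/- minus WT, and a gene was used where its normalized FPKM averaged 0.1 or more. Of the 9 members that passed this filter, 3 were at least 2-fold higher and 0 at least 2-fold lower, where 3.8% of all 14835 genes used were at least 2-fold higher and 3.98% at least 2-fold lower. As the members were chosen with this contrast in view, nothing is read from these shares. The median change was 1.54 for the structural markers and 0.27 for the 3 regulators that passed, while the median of all genes used was 0.01. Adding 1 to the FPKM shrinks changes at the low levels of the regulators. Their ratios of normalized levels were 1.74 (*Snai1*), 1.86 (*Snai2*), 1.86 (*Zeb1*) and 0.505 (*Zeb2*, outside the filter). The counting intervals of *Snai1*, *Snai2* and *Zeb2* also hold differences of more than 2-fold, so these 3 genes are not shown to be stable. Of all genes used, 7558 had a change above 0 and 7263 below.

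**Figure D1:**
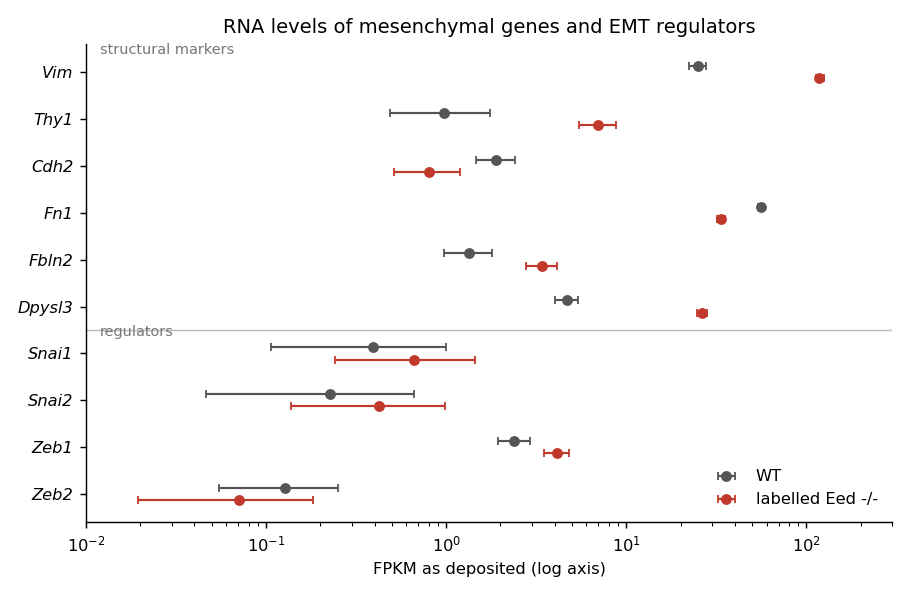
Deposited FPKM of each gene (log axis) in WT (grey) and in the *Eed* -/- labelled library (red), 1 library each, with bars for the 95% Poisson interval of the fragment number, which covers counting error only. The bars of *Vim*, *Thy1*, *Fbln2*, *Dpysl3* and the regulator *Zeb1* are set apart with the red point higher, those of *Cdh2* and *Fn1* are set apart with the grey point higher, and those of *Snai1*, *Snai2* and *Zeb2* overlap widely.

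*Vim* encodes vimentin, the intermediate filament protein of mesenchymal cells. It lies on chromosome 2 of mm9 from 13495554 to 13504453, with 9 exons in its longest annotated transcript of 2193 bp. Its deposited FPKM was 24.9 in WT against 118 in the *Eed* -/- labelled library, a ratio of 4.76. Its normalized level was 5.61 times that of WT, and its change of 2.44 was number 40 from the highest among the 14835 genes used. About 363 and 1530 fragments stood behind these values, and the log2 ratio of deposited FPKM, 2.25, had a 95% interval from counting error of 2.08 to 2.42. All such intervals were computed from fragment numbers rounded to whole fragments, and they leave out the spread between cultures.

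*Dpysl3* encodes a collapsin response mediator protein that binds the cytoskeleton and is best known from growing axons. The gene is on chromosome 18 (43480633 to 43597940), and its FPKM was 4.66 in WT against 26.3 in the *Eed* -/- labelled library. Its change of 2.43 came directly after that of *Vim* in rank, at number 41. The log2 ratio of deposited FPKM was 2.50, with an interval of 2.27 to 2.74.

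*Thy1* encodes a glycolipid-anchored surface protein that is used to sort fibroblasts, neurons and T cells. It has 1 annotated transcript, of 1735 bp in 4 exons, on chromosome 9 (43851467 to 43856662). *Thy1* stood at an FPKM of 0.976 in WT, which equals about 11 fragments, and at 6.97 in the *Eed* -/- labelled library, about 70 fragments. Its normalized level was 7.75 times that of WT, the widest ratio among the 10 genes, while its change of 2.10 (number 59) was smaller than those of *Vim* and *Dpysl3*, since a pseudocount of 1 shrinks the change of a gene near an FPKM of 1. The interval of its log2 ratio ran from 1.92 to 3.91.

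*Fbln2* encodes fibulin-2, a secreted glycoprotein of elastic fibres and basement membranes (chromosome 6, 91162449 to 91222534). Its FPKM was 1.33 in WT against 3.39 in the *Eed* -/- labelled library, and its change of 0.97 was just under the 2-fold threshold. The ratio of normalized levels was 2.68, and the interval of the log2 ratio of deposited FPKM was 0.83 to 1.90. With median-ratio scaling or a smaller pseudocount *Fbln2* passed 2-fold, at changes between 1.02 and 1.42.

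Fibronectin and N-cadherin, the remaining structural markers, went the other way. *Fn1* encodes fibronectin, a matrix glycoprotein to which integrins bind, and it had the highest WT level of the 10 genes. It stood at an FPKM of 55.9 in WT against 33.5 in the *Eed* -/- labelled library, with 3291 and 1750 fragments, and its change was -0.52. *Fn1* lies on chromosome 1 (71632094 to 71699774), whose genes had a median change of -0.29, and relative to that median its change was -0.22.

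*Cdh2* encodes N-cadherin, the adhesion protein that takes the place of E-cadherin in mesenchymal cells. Its FPKM was 1.89 in WT against 0.798 in the *Eed* -/- labelled library (chromosome 18, 16747386 to 16967755), with a change of -0.64. The interval of its log2 ratio of deposited FPKM, -1.98 to -0.54, lay below 0. *Cdh2* is a gene of low level in both libraries, and with a pseudocount of 0.1 in place of 1 its change was -1.08 and thus past 2-fold. The annotation places 1 gene on the opposite strand within *Cdh2*, and 1 within *Fn1*. Whether the authors' counting used the strand is not given in the sources used here.

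**Figure D2:**
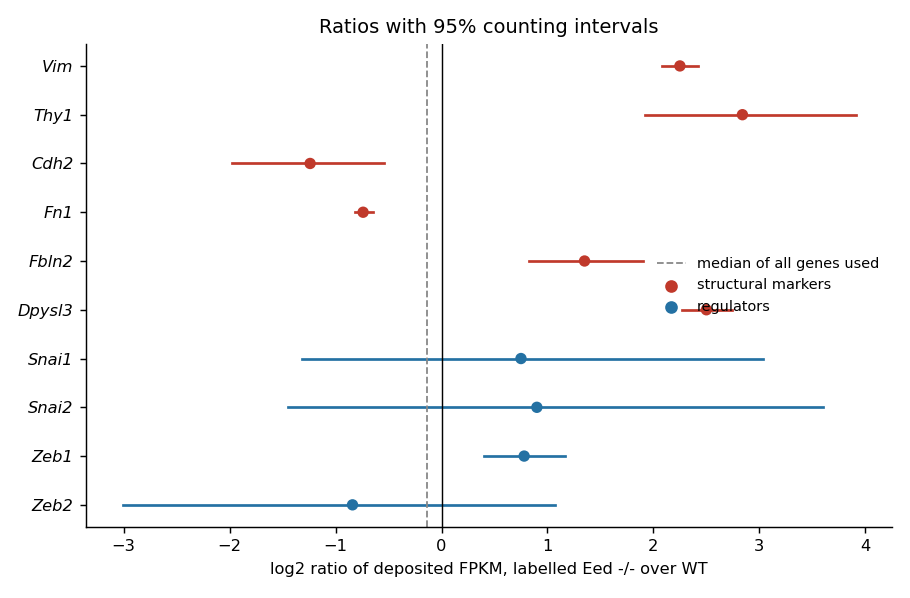
Log2 ratio of deposited FPKM, labelled *Eed* -/- over WT, for the structural markers (red) and the regulators (blue), with 95% counting intervals as lines and the median of all genes used and above 0 in both libraries (-0.14) as a dashed line. The intervals of all 6 structural markers and of *Zeb1* leave out 0, and those of *Snai1*, *Snai2* and *Zeb2* include it.

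Among the regulators, *Zeb1* had the highest level. ZEB1 has zinc-finger clusters at both ends and represses E-cadherin through the corepressor CTBP. The gene (chromosome 18, 5591858 to 5775465) was at an FPKM of 2.39 in WT against 4.11 in the *Eed* -/- labelled library, with a change of 0.68 at number 1370 from the highest. Its normalized level was 1.86 times that of WT, and the interval of the log2 ratio of deposited FPKM was 0.40 to 1.17. *Zeb1* was thus the 1 regulator whose counting interval left out 0. Of 3 further genes annotated within *Zeb1*, 2 lie on the other strand and 1 on the same strand, so reads could be shared between them.

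*Snai1* and *Snai2* encode the repressors Snail and Slug, both known from gastrulation and the neural crest. *Snai1* (chromosome 2, 167363695 to 167368314) stood at an FPKM of 0.392 in WT against 0.661 in the *Eed* -/- labelled library, about 4 and 6 fragments. *Snai2* (chromosome 16, 14705945 to 14709488) stood at 0.226 and 0.423, about 3 and 5 fragments. Each has 1 annotated transcript, and the recovered fragment numbers lay within 0.112 of a whole number for *Snai1* and within 0.0327 for *Snai2*. The changes were 0.27 and 0.21, which a pseudocount of 1 shrinks at such levels, and they were 0.78 and 0.87 with a pseudocount of 0.01, where that of *Zeb1* was 0.89. The ratios of normalized levels were 1.74 for *Snai1* and 1.86 for *Snai2*, and the intervals of the log2 ratios, -1.32 to 3.03 for *Snai1* and -1.45 to 3.60 for *Snai2*, both included 0. A difference of these genes was not detectable at this depth, and the same intervals also hold ratios as large as those of *Vim*, *Dpysl3* and *Thy1*.

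*Zeb2*, which encodes the related repressor ZEB2 (also called SIP1), had the lowest level of the 10 genes. Its FPKM was 0.127 in WT against 0.0711 in the *Eed* -/- labelled library (chromosome 2, 44839154 to 44972915), about 8 and 4 fragments on its longest transcript of 9113 bp. The mean normalized FPKM of 0.0987 left it just outside the filter, and without the filter its change was -0.09. The interval of its log2 ratio, -3.01 to 1.07, included 0. In these libraries *Snai1*, *Snai2* and *Zeb2* were thus all under an FPKM of 1, while every structural marker was above 1 in at least 1 library.

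The order of the levels per length differed between the libraries. In WT it ran from *Fn1* through *Vim*, *Dpysl3*, *Zeb1*, *Cdh2*, *Fbln2*, *Thy1*, *Snai1* and *Snai2* to *Zeb2*, and in the *Eed* -/- labelled library *Vim* came first, followed by *Fn1*, *Dpysl3*, *Thy1*, *Zeb1*, *Fbln2*, *Cdh2*, *Snai1*, *Snai2* and *Zeb2*. From *Zeb1* downwards in WT, the Poisson intervals of all neighbours overlapped, as in *Zeb1* (1.94 to 2.91) and *Cdh2* (1.46 to 2.42). The order within such a pair is not resolved by counting. Genes further apart could be separated in WT, as *Zeb1* and *Fbln2* (0.968 to 1.79). In the *Eed* -/- labelled library the neighbours *Zeb1* (3.47 to 4.82) and *Fbln2* (2.76 to 4.13) overlapped, as did all from *Cdh2* downwards. None of the 10 genes had a near-identical copy elsewhere in the genome.

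The relatives of the structural markers differed among themselves. For this and every list below, the shares of all genes used were 3.8% at least 2-fold higher and 3.98% at least 2-fold lower. The lists were chosen with earlier results of these data known, so their counts are a description. Of 5 collapsin response mediator genes, *Dpysl3* and *Dpysl4* were at least 2-fold higher, *Dpysl4* with FPKM values of 0.731 in WT and 8.25 there and a change of 2.50. *Dpysl2* had values of 5.24 and 1.93 and a change of -0.99, and *Crmp1* and *Dpysl5* changed by -0.19 and 0.58. Of the 10 intermediate filament genes of types III and IV, *Vim* among them, 2 were at least 2-fold higher and 2 at least 2-fold lower, with a median change of -0.10. The muscle filament desmin (*Des*) had an FPKM of 11.2 in WT against 2.42 in the *Eed* -/- labelled library, a change of -1.74. Among the neuronal filament genes, *Nefm* changed by 1.55, *Ina* by -1.37, *Nefl* by 0.77, *Nefh* by -0.28 and *Prph* by -0.16. *Nes*, the filament nestin of neural progenitors, changed by 0.71, *Gfap* of astrocytes by -0.24 and *Synm* by -0.04. All 5 fibulin genes that passed the filter had changes above 0, from 0.17 for *Hmcn1* through 0.41 for *Efemp2*, 0.44 for *Fbln1* and 0.61 for *Efemp1* to 0.97 for *Fbln2*, and 0 reached 2-fold. *Fbln5* was below the filter, and *Fbln7* was listed at 0 in both libraries.

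A loss of E-cadherin with a gain of N-cadherin is the textbook sign of EMT. Here *Cdh1*, which encodes E-cadherin, was at least 2-fold lower, with FPKM values of 62.0 in WT against 24.3 in the *Eed* -/- labelled library and a change of -1.11, and *Cdh2* was lower as well. *Cdh1* lies on chromosome 8, whose genes had a median change of -0.39. P-cadherin (*Cdh3*) had values of 9.23 and 7.64, a change of -0.11. *Cdh4* and *Cdh6* had changes of 0.64 and 0.45 from FPKM values of 0.607 and 0.0564 in WT, *Cdh8* changed by 0.19, *Cdh5* and *Cdh11* were below the filter, and the summed FPKM of the 8 classical cadherin genes looked up was 73.8 in WT against 35.0 in the *Eed* -/- labelled library.

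Of 31 epithelial markers, 25 had a change below 0 and 6 above 0, where 7263 of all genes used were below and 7558 above. The median of the markers was -0.53 where all genes had 0.01. At least 2-fold lower were 2 of them, *Cdh1* and the keratin gene *Krt18* (12.1 and 4.69, change -1.06), and 0 were at least 2-fold higher. *Tjp3*, a tight junction scaffold, came next at -0.99, and the highest change of the list was 0.72. Of 9 factors that hold the epithelial state, 6 had a change below 0 and 3 above 0, and 1 was at least 2-fold lower. This was *Ovol2*, a repressor of *Zeb1* and other EMT genes, with FPKM values of 4.13 in WT against 0.150 in the *Eed* -/- labelled library and a change of -2.12. The epithelial transcription factor genes *Elf3* (11 and 16.5) and *Ehf* (listed at 0 in WT and at 0.553 in the second library) had changes of 0.69 and 0.65.

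Further EMT transcription factors were looked up beside the Snail and ZEB genes. Of 15, 10 passed the filter, 3 were at least 2-fold higher and 0 at least 2-fold lower, where all genes used had shares of 3.8% and 3.98%. The architectural chromatin factor gene *Hmga2* had FPKM values of 1.21 in WT against 7.49 in the *Eed* -/- labelled library and a change of 2.02, *Klf8* had 5.67 and 17.6 with a change of 1.63, and the organizer gene *Gsc* had 0.415 and 1.87 with a change of 1.06. *Klf8* lies on chromosome X, whose genes had a median change of 0.46. The 1 factor of the 10 with a change below 0 was *Tcf3* (30.1 and 17.5, change -0.57). *Twist1* had values of 1.24 and 2.88, a change of 0.85, and *Twist2* was listed at 0 in both libraries. Of the Snail family, *Snai3* was at least 2-fold lower (2.74 in WT against 0.439 in the *Eed* -/- labelled library, change -1.34), and its WT level was above those of *Snai1* and *Snai2*. *Snai3* lies on chromosome 8, whose genes had a median change of -0.39. *Scrt2*, of the related Scratch genes, changed by 0.13, and *Scrt1* was listed at 0 in both libraries. The corepressor genes *Ctbp1*, *Ctbp2* and *Kdm1a*, through which ZEB and Snail proteins act, had changes between -0.52 and -0.46, while *Sin3a* and the deacetylase genes *Hdac1* and *Hdac2* had changes of 0.44, 0.26 and 0.08, and *Rcor1* was at least 2-fold lower (7.18 and 2.07, change -1.32).

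Other mesenchymal markers went both ways. Of 33, 29 passed the filter, 3 were at least 2-fold higher and 4 at least 2-fold lower, with a median change of 0.19. The galectin gene *Lgals3* (3.45 in WT against 20.4 in the *Eed* -/- labelled library, change 2.40) and the metalloprotease inhibitor gene *Timp1* (7.57 and 29.2, change 1.99) were the highest, followed by *Nt5e*, the surface enzyme CD73, at 1.15. The actin-binding gene *Tagln* had values of 4.32 and 0.440, a change of -1.83, and *Des* and *S100a6* (-1.48) were also at least 2-fold lower. Of 10 genes for fibronectin receptors, 8 passed, 4 with a change above 0 and 4 below, and *Sdc4*, a syndecan that acts with integrins, was the 1 that was at least 2-fold lower (58.6 and 20.9, change -1.25). The main fibronectin integrin is formed by the products of *Itga5* and *Itgb1*, which had changes of -0.03 and -0.20, and the integrin genes *Itgb3* (0.693 and 2.16) and *Itgav* (4.21 and 5.30) had changes of 0.94 and 0.39.

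**Figure D3:**
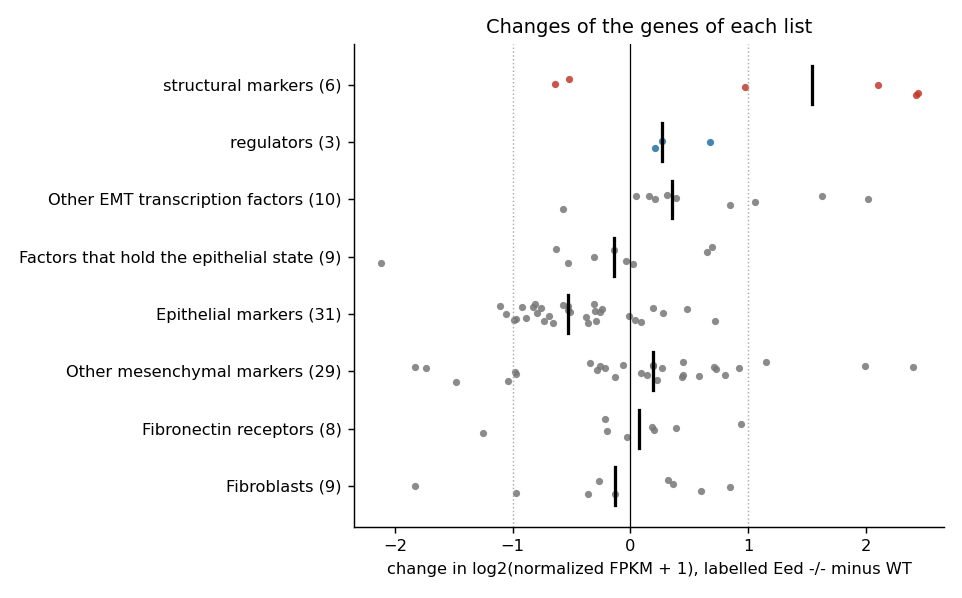
Changes in log2(normalized FPKM + 1), labelled *Eed* -/- minus WT, with 1 point per gene that passed the filter (numbers in brackets), medians as black bars and 2-fold marked by dotted lines. The structural markers lie in 2 groups on either side of 0, the regulators lie between 0.21 and 0.68, and 25 of the 31 epithelial markers lie below 0.

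Several of the structural markers are also expressed by fibroblasts, so fibroblast genes were read beside them. Of 18 fibroblast markers, 14 each stayed below an FPKM of 1 in WT as well as in the *Eed* -/- labelled library, and their FPKM summed over all 18 was 9.93 and 7.56. Without *Tagln*, left out after its values were seen, the sums were 5.62 and 7.12, so that the direction of the sum rests on this gene. Of the 9 that passed the filter, 4 had a change above 0 and 5 below. *Twist1* had the highest change (0.85), *Col5a1* had values of 1.2 and 2.22 and *Acta2* of 1.10 and 0.0648. The defining markers *Dcn*, *Fap* and *Twist2* were listed at 0 in both, *Col1a1* had values of 0.460 and 0.137 and *Col1a2* of 0.167 and 0.0312. A value of 0 in such a table can also be a failed estimate. T cell markers, read because of *Thy1*, lay below an FPKM of 1 throughout for 5 of 6 genes, and *Lck*, the exception, had 23.8 in WT against 5.81 in the *Eed* -/- labelled library.

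Markers of other cell types that use *Vim*, *Cdh2* or *Dpysl3* differed with the libraries. Summed over 16 genes of primitive and parietal endoderm, FPKM was 195 in WT against 241 in the *Eed* -/- labelled library. Most of both sums came from *Sparc* (71.9 and 67.9) and *Lamc1* (62.1 and 61.2). Of the 16, 6 were below an FPKM of 1 in both libraries. At least 2-fold higher were 4 of the 15 that passed, namely *Lama1* (2.06), *Col4a1* (1.76), *Nid1* (1.41) and *Col4a2* (1.22), all of basement membrane. The parathyroid hormone receptor gene *Pth1r* was at least 2-fold lower (4.85 and 0.683, change -1.73). Summed over 8 early mesoderm genes FPKM was 27.5 and 91.9, most of it from *Lefty2* alone. Of the 8, 5 were below an FPKM of 1 in both libraries, and 3 genes were at least 2-fold higher. These were *Lefty2*, a Nodal inhibitor that pluripotent cells also express (25.2 and 86.5, change 1.95), *Kdr* (0.158 and 1.59, change 1.18) and *Eomes* (0.478 and 1.93, change 1.03). Summed over 10 neural genes FPKM was 188 and 165, most of both from *Tubb3* and *Stmn2*. *Ncam1*, a neural adhesion gene, was the 1 that was at least 2-fold higher (1.14 and 6.54, change 1.90), while *Sox1* changed by -0.56. Over 7 neural crest genes the sums were 16.7 and 40.3, most of both from *Ngfr* and *Foxd3*. Of the 7 changes, 6 were above 0 and 1 below, but 4 of the genes were below an FPKM of 1 in both libraries. *Ngfr* and *Foxd3* were at least 2-fold higher (8.85 and 22.7, change 1.43, and 5.67 and 13.6, change 1.26), and the 1 below 0 was *Sox10*, a defining marker (0.328 and 0.0612, change -0.33). The part of such cells in the values of the structural markers was not tested, and in bulk RNA more cells of a type and more RNA per cell cannot be told apart.

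The genes whose pair of levels was most like that of *Vim*, by Euclidean distance over the 2 libraries in log2(normalized FPKM + 1), were *Lefty2* (distance 0.47), *Kdm5a* (0.532), *Calcoco2* (0.569), *Tubb2b* (0.685) and *Hist1h2aa* (0.806). Their changes ran from 1.57 for *Tubb2b* to 3.28 for *Hist1h2aa*. With 2 libraries this likeness says no more than that both levels were close.

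**Figure D4:**
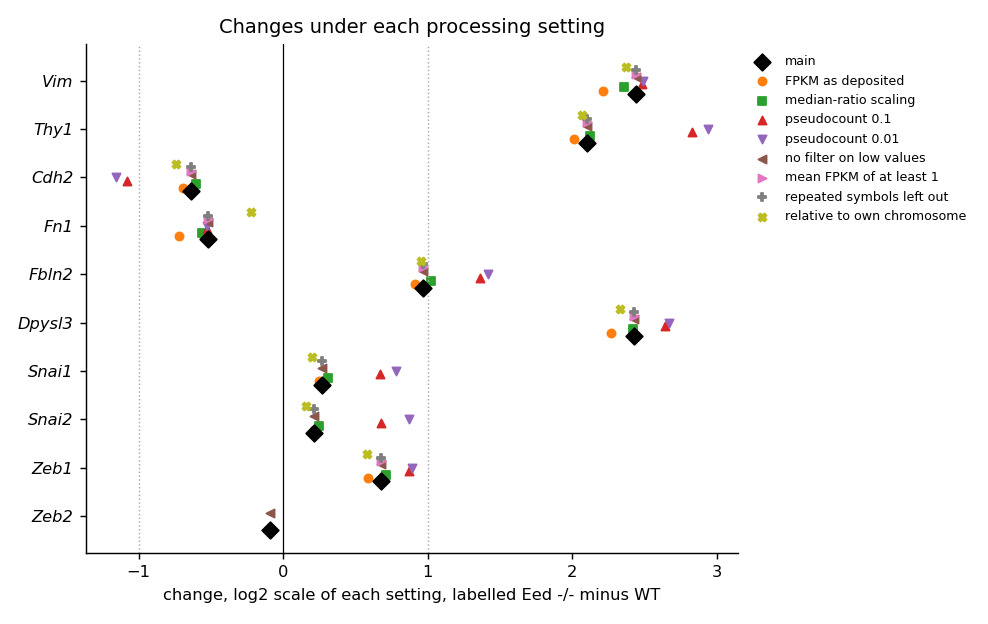
Change of each member under the main processing (black diamonds) and under each alternative (coloured marks), labelled *Eed* -/- minus WT, with 2-fold at the dotted lines. *Vim*, *Thy1* and *Dpysl3* stay past 2-fold in each setting, *Fbln2* and *Cdh2* cross the line in some, and *Zeb2* has a value only where low values were not filtered and is drawn beside that as its unfiltered main value.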

How the data were processed

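The RNA-seq libraries of WT and *Eed* -/- mESCs were used, 1 each, and other assays were not analysed here. The authors depleted total RNA of ribosomal RNA, made strand-specific libraries, aligned reads to mm9 by TopHat and took levels from Cufflinks (the submitters' processing notes name TopHat2 2.0.11 and Cufflinks 2.2.1, while the study's methods name another TopHat version). The values deposited by the authors are FPKM per gene symbol, and the annotation, Cufflinks options and any scaling between libraries are not given in the sources used here. No columns of other samples were present.

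Each library lists 24525 values. For 268 repeated symbols the values were summed, libraries were quantile-normalized, and changes were taken in log2(FPKM + 1), which understates those of low genes, for genes whose normalized FPKM averaged 0.1 or more. At least 2-fold on this scale is the call. Positions and transcripts are from GENCODE vM1 on NCBIM37 (mm9), where 21885 symbols were matched by symbol or synonym. Depth was recovered from 5053 single-transcript genes (1000 bp or longer), 180 bp taken off, as the depth at which low values (up to 6 fragments) best fell on whole fragments. Of these values 79.1% in WT and 80.4% in the second library lay within 0.1 of one, against 19.8% and 21.6% with lengths shuffled. Fragment numbers of the members use the longest coding transcript and are approximate where there are several. Poisson intervals and Clopper-Pearson intervals of the ratio (95%) cover counting error only. Copies were sought with minimap2 2.31 (80% of the transcript at 95% identity).

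The members and gene lists were chosen with earlier results of these data known. The rule for named genes took the members and *Eed*, allowed any gene of the family lists, and added up to 3 genes with the largest absolute change of each other list, and the 5 genes most like the leading member. *Tcf3*, *Twist2*, *Nt5e*, *S100a6*, *Itga5*, *Itgb1*, *Dcn*, *Fap*, *Col1a1*, *Col1a2*, *Col5a1*, *Nid1*, *Col4a2*, *Sox10* and *Pou5f1* were added after values were seen, to complete small counts or for their known roles. *Sparc*, *Lamc1*, *Tubb3* and *Stmn2* were also added then, to show which genes made up a sum. The alternatives were other scalings, pseudocounts, filters, thresholds and the change relative to the gene's own chromosome. Computations ran in Python 3.11.15 (scipy 1.17.1, pandas 2.3.3, numpy 2.4.6, with figures by matplotlib 3.10.9) and were tested on simulated data.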

Additional observations from a re-analysis of the deposited data

How the results depend on the processing

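The number of members at least 2-fold higher was 3 with the processing used and 3 or 4 in the 9 alternatives, and the number at least 2-fold lower was 0, or 1 (*Cdh2*) with pseudocounts of 0.1 and 0.01. Over 8 alternatives that give changes, the structural median ran from 1.46 to 1.95, the regulator median from 0.20 to 0.87, and the difference between them from 0.86 to 1.32. With all members placed at the ends of their own counting intervals, that difference would lie between -0.66 and 2.19, which is an outer bound and no 95% interval, so depth limits any contrast between structural markers and regulators (*Snai1* and *Snai2* rest on 3 to 6 fragments a library). No member changed sign. Over all genes, 1694 were higher and 1778 lower at 2-fold with a pseudocount of 0.1, 1914 and 1989 with 0.01, and 152 and 137 at 3-fold. The FPKM as deposited moved the median of all genes to -0.09. By setting, the lists of fibronectin receptors, classical cadherins, Snail family, pluripotent cells, fibroblasts and T cells did not keep the sign of their median. No paired analysis was possible because each genotype has 1 RNA-seq library.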
